A study of Mus musculus with 8 samples.

Results

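The beta cell transcription factors followed here are Pdx1, Mafa, Nkx6-1, Nkx2-2, Neurod1, Isl1, Rfx6 and Pax6, read in mouse pancreatic islets attacked by transferred T cells. Their probe sets, the groups of short probes by which an Affymetrix array reads a stretch of transcript, were taken where the platform annotation gives exactly 1 of these symbols. This found 13 probe sets of 6 genes among 45101 probe sets in all: 2 each for Pdx1, Neurod1 and Isl1, 1 each for Nkx6-1 and Nkx2-2, and 5 for Pax6. No probe set carries the symbol Mafa or Rfx6 in that annotation, so these genes were not analysed here.

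All mice were NOD.Scid, a strain with the autoimmunity-prone NOD background but no lymphocytes with antigen receptors. Islets were cut from frozen sections by laser. Diabetogenic islets came from mice given CD4+ T cells of the BDC2.5 transgenic line, whose receptor recognises a beta cell antigen, and were taken 3, 4 and 8 days later (3 arrays). On day 5 these islets were too swollen to dissect. Protected islets came from mice that also received anti-Ifng antibody, against interferon-gamma, 2 times (the day before transfer and day 2), and were taken on days 3, 4, 5 and 8 (4 arrays). Untreated islets (day 0) gave 1 array. Each array carried RNA pooled from 5 mice, no arm and day has a second array, and the labels give no ages and name no control antibody.

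Beta cell identity is held by a small set of DNA-binding proteins that act together on the insulin genes and on each other. Pdx1 is a homeodomain protein needed first to form the pancreas and later to keep beta cells mature. Neurod1 is a basic helix-loop-helix protein that binds E-boxes of the insulin promoters. Isl1, a LIM-homeodomain protein, and Pax6, a paired-box and homeodomain protein, also act in other endocrine cells of the islet.

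The promoters of the 4 genes with a probe set that fell after day 3 are shown beside that of Ins1, a textbook target, so that the short cores these proteins recognise can be seen in them. The sequences are RefSeq's (GRCm38.p6), from 250 bases before to 50 after each gene's start, and all 6 measured genes had such a window. They lie at chr5:147269847-147270146 (plus strand), chr2:79456587-79456886 (minus strand), chr13:116309639-116309938 (minus strand), chr2:105668646-105668945 (plus strand) and chr19:52264047-52264346 (plus strand). Capitals mark TAAT on either strand (ATTA on the printed one), the homeodomain core, and CANNTG, the E-box, which reads alike on both strands.
Pdx1: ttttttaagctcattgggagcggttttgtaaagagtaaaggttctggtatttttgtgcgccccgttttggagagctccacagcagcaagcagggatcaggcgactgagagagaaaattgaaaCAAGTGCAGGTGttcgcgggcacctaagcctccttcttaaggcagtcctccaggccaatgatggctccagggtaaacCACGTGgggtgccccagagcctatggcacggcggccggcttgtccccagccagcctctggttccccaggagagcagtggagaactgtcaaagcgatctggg
Neurod1: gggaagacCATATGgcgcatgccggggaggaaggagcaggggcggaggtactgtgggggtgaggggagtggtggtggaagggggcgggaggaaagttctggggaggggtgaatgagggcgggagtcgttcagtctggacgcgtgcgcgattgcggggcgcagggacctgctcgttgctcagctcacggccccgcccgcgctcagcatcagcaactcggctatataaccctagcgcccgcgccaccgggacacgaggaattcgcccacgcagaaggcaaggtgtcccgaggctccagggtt
Isl1: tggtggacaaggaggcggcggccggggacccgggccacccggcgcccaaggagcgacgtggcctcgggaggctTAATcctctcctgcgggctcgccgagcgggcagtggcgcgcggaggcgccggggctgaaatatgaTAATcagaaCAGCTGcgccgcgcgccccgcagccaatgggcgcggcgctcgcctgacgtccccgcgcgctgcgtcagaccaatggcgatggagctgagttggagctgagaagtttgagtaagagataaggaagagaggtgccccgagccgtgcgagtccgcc
Pax6: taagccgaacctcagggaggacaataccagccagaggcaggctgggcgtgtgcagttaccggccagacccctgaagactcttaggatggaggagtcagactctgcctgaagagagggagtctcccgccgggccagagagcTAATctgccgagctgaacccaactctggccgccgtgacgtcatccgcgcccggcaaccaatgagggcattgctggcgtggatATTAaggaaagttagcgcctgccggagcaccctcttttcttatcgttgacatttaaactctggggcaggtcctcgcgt
Ins1: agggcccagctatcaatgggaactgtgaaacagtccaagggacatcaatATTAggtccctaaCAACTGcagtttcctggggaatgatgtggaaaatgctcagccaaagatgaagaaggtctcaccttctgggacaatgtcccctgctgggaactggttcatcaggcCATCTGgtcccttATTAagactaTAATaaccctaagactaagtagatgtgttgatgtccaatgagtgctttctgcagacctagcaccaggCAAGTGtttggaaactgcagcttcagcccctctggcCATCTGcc
The Pdx1 window held 3 E-boxes and 0 TAAT cores, and the Neurod1 window 1 and 0. The Isl1 window held 1 E-box and 2 TAAT cores, the printed Pax6 window 0 and 2, and the Ins1 window 4 and 3. RefSeq gives Pax6 a second window, at chr2:105682213-105682512, which held 1 E-box and 2 TAAT cores. Of all 32851 windows of this length, 72.3% held an E-box and 58% a TAAT core, so a match is common and describes letters, not a bound site.

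The arrays of later days differed from the earlier ones as a whole. Array medians lay between 3.14 and 3.96 intensity units. Spiked control transcripts, added in the laboratory, had median intensities of 551 to 1712 on the 5 later arrays, against 1.48 to 2.29 on the day 3 and untreated arrays. The share of bright probe sets, those reaching at least 8 times their array's median, was 0.90% to 3.91% on the later arrays, against 4.75% to 5.35% on the others. The 0.90% was that of the diabetogenic day 4 array, and the next lowest was 2.06% on diabetogenic day 8. How far this dimness accounts for low values on the diabetogenic day 4 array was not tested. The ratio of 3' to 5' Actb probe sets was 2.25 to 24.2 on later arrays and 1.86 to 5.54 on the others. Islet hormones were present on all 8 arrays, with Ins2 at 3409 to 6359, Gcg at 52.8 to 2390 and Iapp at 99.7 to 1143, the lowest Gcg and Iapp both in diabetogenic islets of day 4.

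A probe set was counted at background on an array where its intensity was at or below that array's median. After day 3, 12 of the 13 probe sets were at background on at least 1 of the 5 later arrays and 8 on at least 3 of them, a count defined after the values were seen. Over all 34958 probe sets with 1 symbol these shares were 85.6% and 51.9%, so neither count stands out. Diabetogenic islets had 5, 9 and 9 of the 13 at background on days 3, 4 and 8, protected islets 3, 7, 5 and 6 on days 3, 4, 5 and 8, and untreated islets 4. By construction about as many probe sets lie at background as above it, and the share over those with 1 symbol was 46.6% to 50.5% on each array. With the 25th percentile as limit, 1 in place of 8 was at background on at least 3 later arrays. With the 75th percentile as limit, 8 to 11 of the 13 lay at or below it on each later array. The share over probe sets with 1 symbol was then 72.7% to 75.6%. The probe set 1437816_at of Pax6 was the 1 that stayed above the median on all 8 arrays.

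**Figure D1:**
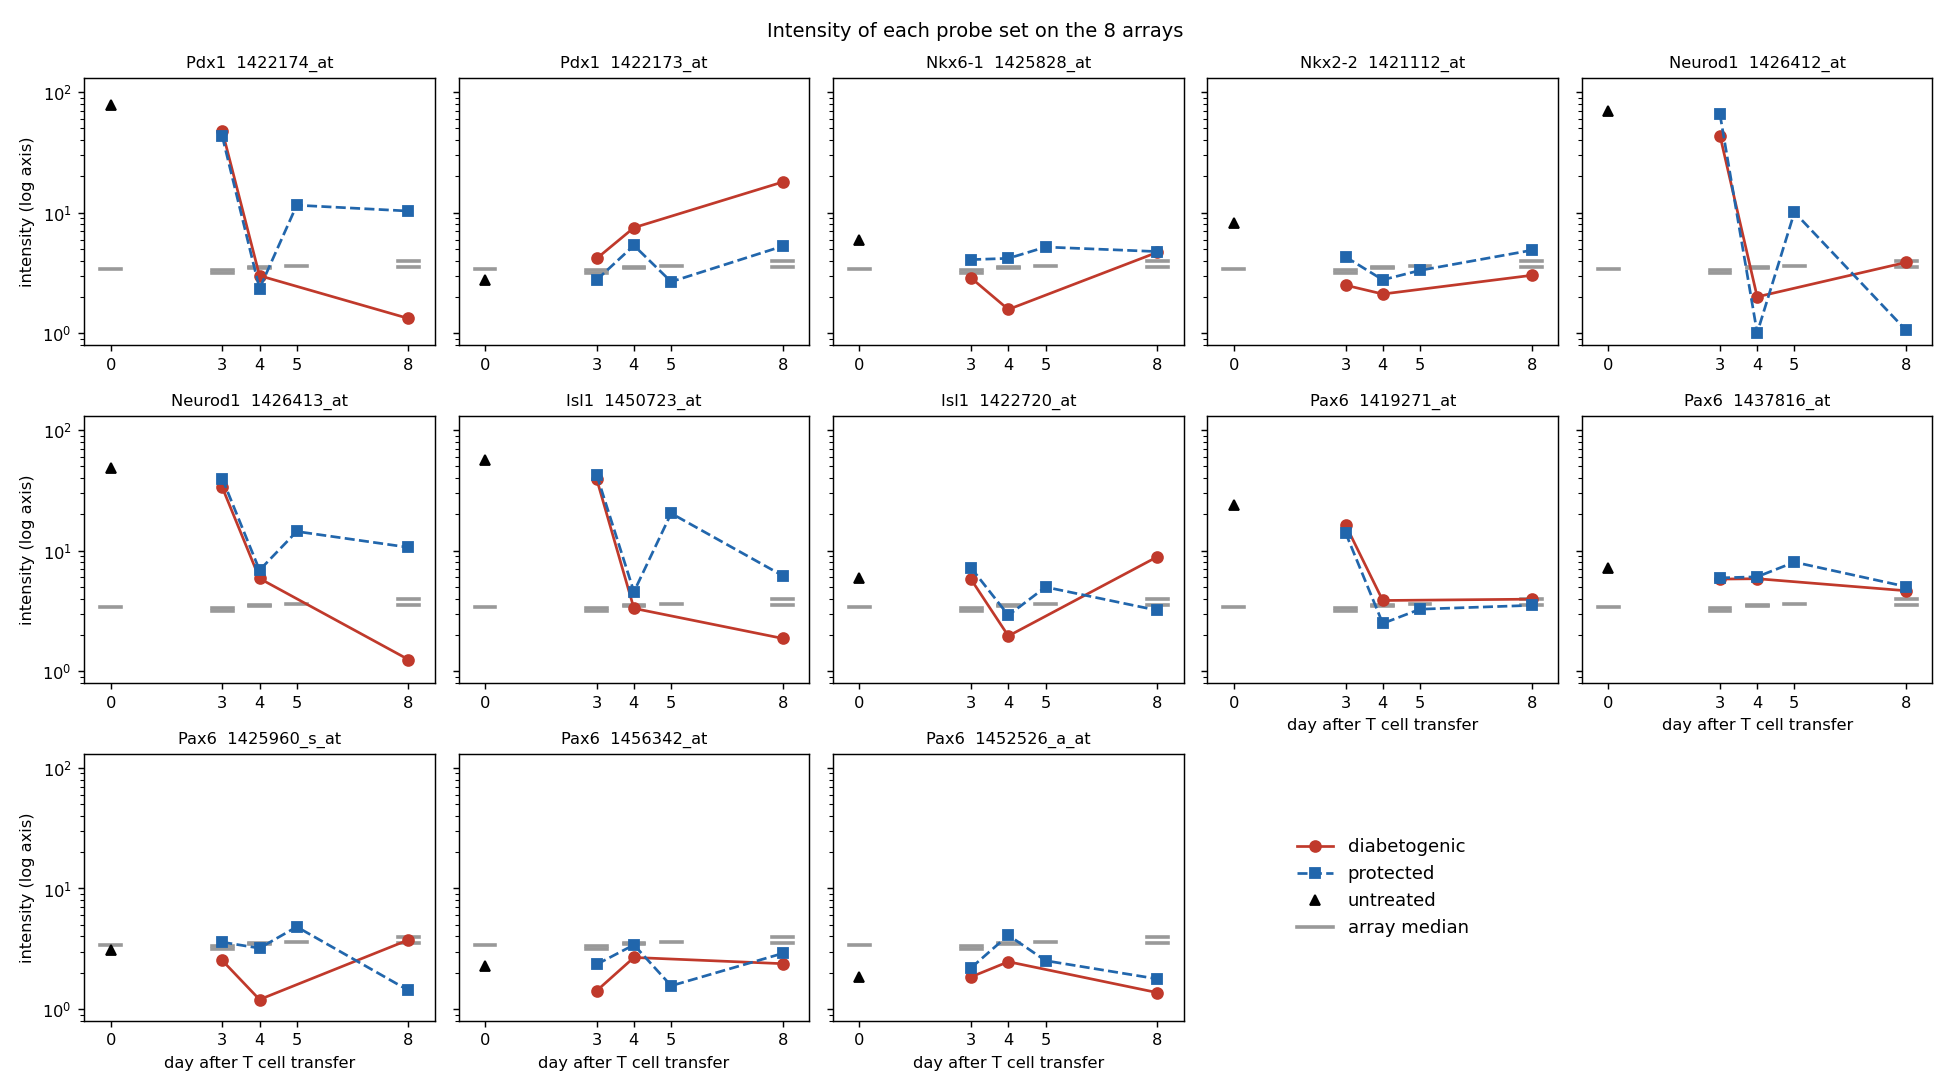
Intensity (log axis) of each of the 13 probe sets against the day after T cell transfer, 1 point per array, by arm, with each array's median for comparison. 1422174_at of Pdx1 reads 77.5 in untreated islets and 11.6 or less on every array after day 3.

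Pdx1 was read by 2 probe sets that moved apart. By 1422174_at it read 47.6, 3.01 and 1.33 in diabetogenic islets of days 3, 4 and 8, 42.9, 2.35, 11.6 and 10.3 in protected islets of days 3, 4, 5 and 8, and 77.5 in untreated islets. It was at background on both day 4 arrays and the diabetogenic day 8 array, and well above the median in protected islets of days 5 and 8 (percentiles 87.4 and 88.6). By 1422173_at it read 4.18, 7.53 and 18.0 in diabetogenic islets of days 3, 4 and 8, 2.78, 5.36, 2.68 and 5.29 in protected islets of days 3, 4, 5 and 8, and 2.78 in untreated islets. That probe set was at background in untreated islets and in protected islets of days 3 and 5, and highest in diabetogenic islets of day 8, where the other was lowest. Their log2 values had a Pearson r of -0.75 over the 8 arrays, although the annotation gives both the same source sequence, so the direction for Pdx1 depends on which is read.

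Neurod1 was bright on both its probe sets until day 3. By 1426412_at it read 43.7, 2.01 and 3.88 in diabetogenic islets of days 3, 4 and 8, 65.5, 1.01, 10.1 and 1.06 in protected islets of days 3, 4, 5 and 8, and 69.2 in untreated islets. It was at background on 4 of the 5 later arrays, all but protected day 5. By 1426413_at it read 33.4, 5.88 and 1.25 in diabetogenic islets of days 3, 4 and 8, 39.5, 6.89, 14.4 and 10.7 in protected islets of days 3, 4, 5 and 8, and 48.1 in untreated islets. This probe set was at background on the diabetogenic day 8 array alone. The pair had an r of 0.85 but parted on day 8, when diabetogenic islets were the higher by 1426412_at and the lower by 1426413_at.

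Isl1 showed the same course on 1 of its 2 probe sets. By 1450723_at it read 39.1, 3.32 and 1.87 in diabetogenic islets of days 3, 4 and 8, 42.5, 4.56, 20.4 and 6.19 in protected islets of days 3, 4, 5 and 8, and 56.8 in untreated islets. It was at background in diabetogenic islets of days 4 and 8 and above the median on all 4 protected arrays. By 1422720_at it read 5.77, 1.96 and 8.89 in diabetogenic islets of days 3, 4 and 8, 7.19, 2.91, 4.99 and 3.20 in protected islets of days 3, 4, 5 and 8, and 5.95 in untreated islets. This probe set was at background on both day 4 arrays and in protected islets of day 8, and its groups of early and later arrays overlapped.

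Pax6 had 5 probe sets, of which 1 fell. By 1419271_at it read 16.4, 3.86 and 3.96 in diabetogenic islets of days 3, 4 and 8, 14.1, 2.49, 3.27 and 3.52 in protected islets of days 3, 4, 5 and 8, and 24.1 in untreated islets. It was at background on 4 of the 5 later arrays, with diabetogenic day 4 just above the median and diabetogenic day 8 equal to it. The probe set 1437816_at ranged from 4.65 to 8.03, with later and earlier arrays overlapping. The other 3, 1425960_s_at (1.20 to 4.81), 1456342_at (1.42 to 3.41) and 1452526_a_at (1.37 to 4.10), were at background on 6, 8 and 7 of the 8 arrays.

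Nkx2-2 and Nkx6-1, homeodomain proteins that specify and maintain beta cells, stayed below the 90th percentile on all 8 arrays. By 1421112_at Nkx2-2 read 2.51, 2.12 and 3.03 in diabetogenic islets of days 3, 4 and 8, 4.31, 2.78, 3.33 and 4.89 in protected islets of days 3, 4, 5 and 8, and 8.24 in untreated islets. It was at background on 4 of the 5 later arrays, but already so in diabetogenic islets of day 3. By 1425828_at Nkx6-1 read 2.88, 1.58 and 4.70 in diabetogenic islets of days 3, 4 and 8, 4.09, 4.19, 5.20 and 4.77 in protected islets of days 3, 4, 5 and 8, and 5.91 in untreated islets. It was at background in diabetogenic islets of days 3 and 4 alone.

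**Figure D2:**
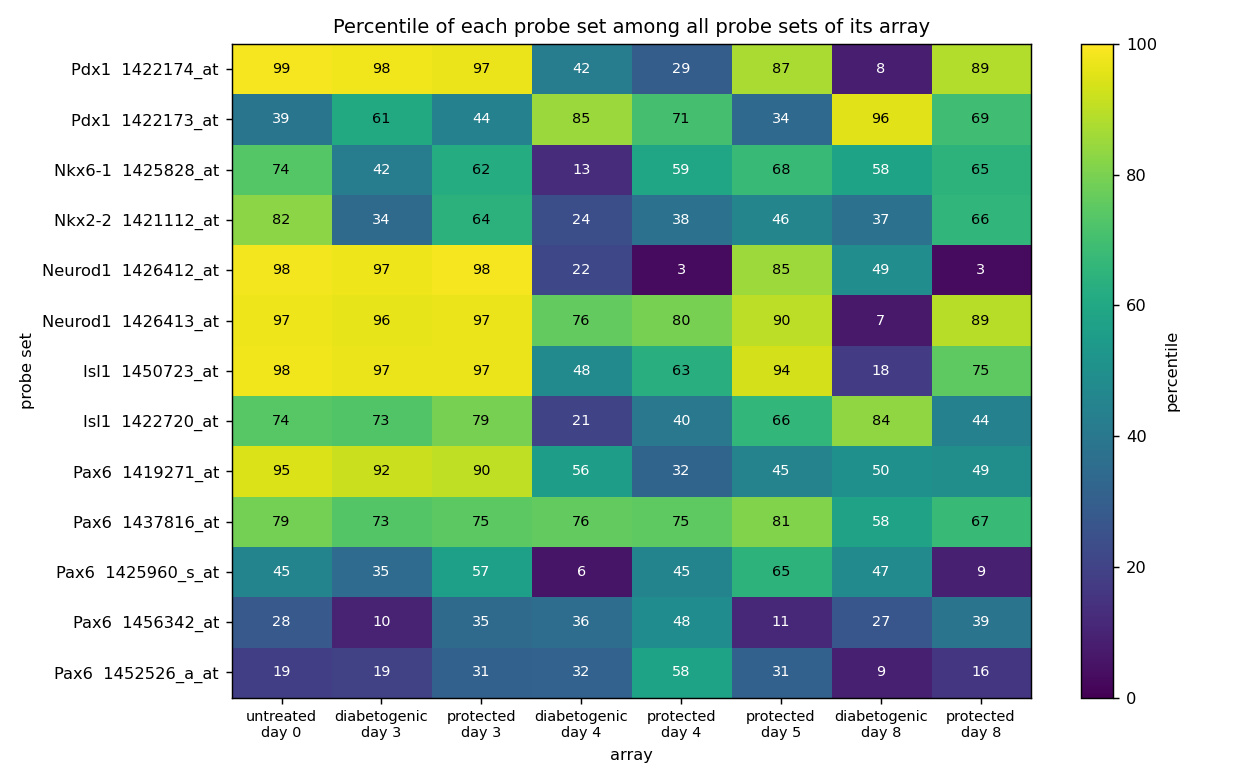
Percentile of each of the 13 probe sets (rows) among all 45101 probe sets of each array (columns, by day). 1422174_at of Pdx1, both Neurod1 probe sets, 1450723_at of Isl1 and 1419271_at of Pax6 lie above the 90th percentile on the untreated and day 3 arrays. Each has a lower percentile on every later array than on these. In protected islets of day 5, 1450723_at (93.7) and 1426413_at of Neurod1 (90.2) were still above the 90th.

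What changed after day 3 in islets that had received T cells was tested over the 5 arrays of days 4, 5 and 8 against the 2 of day 3, with arm as a term. Pdx1, Neurod1, Isl1 and Pax6 fell, each on the probe sets that were above the 90th percentile at the start. Values were compared as log2(intensity + 2.155), which understates changes of dim probe sets. Of the 13 probe sets 11 passed the filter on low values (all but 1456342_at and 1452526_a_at of Pax6), and 5 were lower and 0 higher at an adjusted p of 0.05 by limma. Over all 28847 probe sets tested 8.06% were called, 6.98% lower and 1.08% higher. The median log2 difference was -0.48 over the 11 and 0.01 over all.

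Neurod1 was 11.3-fold lower by 1426412_at (log2 difference -3.49 ± 0.51 (SE), limma adjusted p = 0.000105) and 4.68-fold lower by 1426413_at (-2.23 ± 0.53, adjusted p = 0.00729). Pdx1 was 7.40-fold lower by 1422174_at (-2.89 ± 0.52, adjusted p = 0.000781). Isl1 was 5.89-fold lower by 1450723_at (-2.56 ± 0.54, adjusted p = 0.00259), and Pax6 3.08-fold lower by 1419271_at (-1.62 ± 0.40, adjusted p = 0.00980). The size of these folds depends on the pseudocount, since many later values lie at background: with 4 times and with 0.25 times the pseudocount it was 5.34 and 17.4 for 1426412_at, 2.95 and 5.94 for 1426413_at, 4.03 and 10.2 for Pdx1, 3.46 and 7.68 for Isl1 and 1.97 and 3.93 for Pax6. All 5 passed at each. On each of these 5 every later array lay below both day 3 arrays, as for 16.7% of all probe sets tested, and below the untreated array too, as for 14.3%.

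The other 6 did not pass. 1422173_at of Pdx1 had a log2 difference of 0.74 (95% interval -0.13 to 1.62) and 1422720_at of Isl1 one of -0.48 (-1.32 to 0.37). The interval was -0.80 to 0.63 for Nkx2-2 and -0.68 to 0.83 for Nkx6-1. It was -0.86 to 0.82 for 1437816_at and -0.85 to 0.61 for 1425960_s_at of Pax6. All 6 intervals span 0, and the sign of each estimate but that of 1422173_at turned under at least 1 alternative.

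The calls rested on the day 3 arrays. Without the diabetogenic array of day 3, 1426412_at of Neurod1 alone passed (-3.76, limma adjusted p = 0.00640), while the other 4 kept their direction, at -2.30 to -1.63 with adjusted p from 0.197 to 0.529. Without the protected array of day 3, Pax6 did not pass (-1.61, adjusted p = 0.175). Without any 1 of the later arrays, all 5 passed. After quantile normalization 4 passed, without 1426413_at of Neurod1 (-1.82, adjusted p = 0.0564), and with a slope per day in place of a step 0 passed (adjusted p from 0.499 to 0.584). The arrays of day 3 and of later days are also those without and with spiked control signal, so the 2 splits cannot be told apart.

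Bright probe sets of any gene often fell after day 3. Of the 3140 tested probe sets at or above the 90th percentile on the untreated and both day 3 arrays, a subset defined after the values were seen, 39% were called lower, and 5 of the 5 belonging to these factors were. In the same subset 58.3% had every later array below the 3 earlier ones (5 of 5 for the factors), and 11.2% were at background on at least 3 later arrays (3 of 5 for the factors). Over all tested probe sets, 13.3% were above the median on the 3 earlier arrays and at background on at least 3 later ones, as were 4 of the 11. The bright subset was chosen by high values on the same 3 arrays that the later ones were set against, which favours a fall. Its counts are therefore a description, and do not show that the factors fell more than other bright probe sets. In bulk islets, fewer beta cells and less RNA of a gene per cell cannot be told apart.

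**Figure D3:**
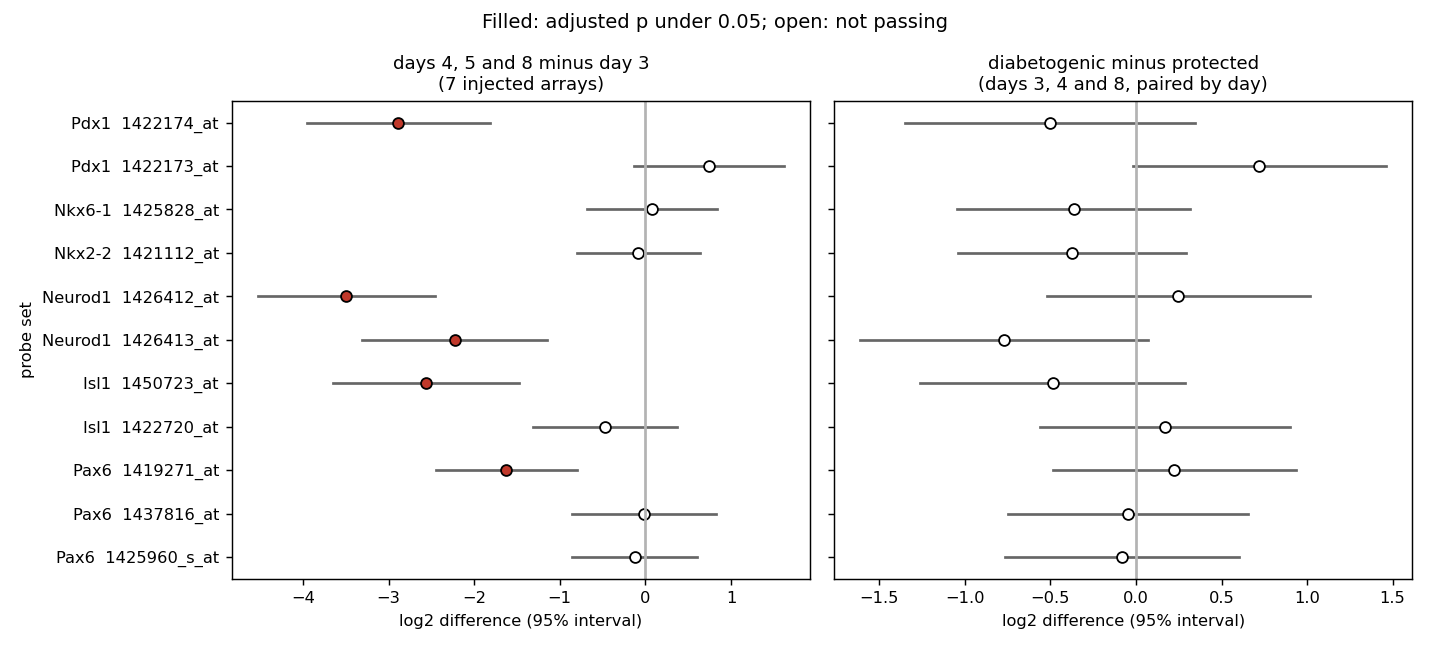
Log2 differences with 95% intervals for the 11 tested probe sets, for days 4, 5 and 8 minus day 3 (left) and diabetogenic minus protected islets over 3 matched days (right). On the left 5 passed at an adjusted p of 0.05, all below 0, and on the right 0 passed.

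Whether neutralising interferon-gamma altered these transcripts was tested by pairing the arms on days 3, 4 and 8. None of the 11 probe sets passed (limma, 0 called and 0 with an unadjusted p under 0.05), against 0.0416% of all probe sets called and 7.94% with an unadjusted p under 0.05. Differences, diabetogenic minus protected, ran from -0.77 ± 0.41 for 1426413_at of Neurod1 (adjusted p = 0.654) to 0.72 ± 0.36 for 1422173_at of Pdx1 (adjusted p = 0.638). The interval was -1.35 to 0.34 for 1422174_at of Pdx1 and -1.26 to 0.29 for 1450723_at of Isl1, which does not show that the arms were alike. Without the day 8 pair the difference of 1422174_at turned positive (0.17).

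Single days were compared with 1 array per arm and no test. On day 3, 0 of the 11 were 2-fold lower and 0 higher in diabetogenic than in protected islets, against 0.458% and 1.35% of all probe sets tested. On day 4 it was 0 and 0, against 11.4% and 6.18%. On day 8, 3 were lower, 1422174_at of Pdx1 (log2 difference -1.84), 1426413_at of Neurod1 (-1.91) and 1450723_at of Isl1 (-1.05), against 11.7%. Another 2 were higher, 1422173_at of Pdx1 (1.44) and 1422720_at of Isl1 (1.04), against 10.3%. The diabetogenic values of the 3 lower ones (1.33, 1.25 and 1.87) were all at background, and with 4 times the pseudocount the counts were 0 and 0. With 11 probe sets and 1 array per arm and day, these counts say nothing particular about these factors.

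Whether the change after day 3 differed between the arms was tested as an interaction over the 7 injected arrays. None of the 11 passed (limma, 0 called and 0 with an unadjusted p under 0.05), against 0% of all called and 1.02% with an unadjusted p under 0.05. The largest estimate, -1.25 ± 1.10 for 1422174_at of Pdx1, had an interval of -3.47 to 0.96, which leaves differences of several fold undetectable here.

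Set against the untreated array, Nkx2-2 was the only 1 of the 11 to be 2-fold lower on day 3, in diabetogenic islets (log2 difference -1.16, against 1.29% of all probe sets lower, 2.58% higher). In protected islets of day 3 it was 0 lower and 0 higher (1.17% and 1.84%). On day 4, 7 were lower in diabetogenic islets (21.3%, with 0 higher against 9.74%) and 6 in protected islets (17.1%, with 0 higher against 9.11%). In protected islets of day 5 the count was 5 (8.76%, with 0 higher against 8.69%). On day 8, 6 were lower and 1 higher in diabetogenic islets (19% and 14.4%), and 5 lower and 0 higher in protected islets (13% and 8.3%). The 5 probe sets called above were among the lower ones on every later array. The counts for days 4, 5 and 8 were defined after the values were seen.

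Against the untreated array, in the fit of all 8 arrays, the median over all probe sets was -0.043 in diabetogenic and -0.024 in protected islets. Of the 11, 10 were negative in each arm, with medians of -1.15 in diabetogenic and -0.81 in protected islets. None passed in either (0 called by limma, 3 and 2 with an unadjusted p under 0.05), against 0% and 0.00347% of all probe sets called and 2.70% and 2.23% with an unadjusted p under 0.05. Both comparisons share the single untreated array, which is assumed to vary as the days of an arm do.

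Of the 5 probe sets that fell, 4 read highest among the later arrays in protected islets of day 5. These were 1422174_at of Pdx1 (11.6), 1426412_at and 1426413_at of Neurod1 (10.1 and 14.4) and 1450723_at of Isl1 (20.4). The exception was 1419271_at of Pax6 (3.27, against 3.96 on the highest later array). Day 5 was also the highest later array for Nkx6-1 (5.20) and for 1437816_at (8.03) and 1425960_s_at (4.81) of Pax6. It was the lowest for 1422173_at of Pdx1 (2.68) and 1456342_at of Pax6 (1.56). For 1422720_at of Isl1 the highest was diabetogenic day 8 (8.89), and for Nkx2-2 it was protected day 8 (4.89). For 1456342_at and 1452526_a_at of Pax6 it was protected day 4 (3.41 and 4.10). The day 5 array also had the largest share of bright probe sets among the later ones (3.91%). Of all probe sets tested, 8.76% were 2-fold lower there than on the untreated array, against 13% to 21.3% on the other later arrays. The share of all probe sets that read highest on day 5 was not counted, so 4 of 5 cannot be read as a result about these factors. The part of these array differences was not tested.

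Other islet transcription factors moved in part the same way. Of 32 listed, 23 were tested by their brightest probe set, and 5 were lower and 0 higher after day 3, with a median log2 difference of -0.37. Insm1, a zinc-finger factor of endocrine cells, had the largest (-2.79 ± 0.47, limma adjusted p = 0.000412), followed by St18 (-2.64 ± 0.45), Tshz1 (-1.75 ± 0.44) and Myt1 (-1.60 ± 0.38). Insm1 read 36.6, 1.94 and 3.47 in diabetogenic islets of days 3, 4 and 8, 34.4, 1.30, 6.27 and 5.69 in protected islets of days 3, 4, 5 and 8, and 52.6 in untreated islets. Read in the same way, by brightest probe set, 4 of the 6 beta cell factors were lower, with a median of -2.09. The brightest probe set is the one with the highest mean intensity over the 8 arrays, day 3 among them, which favours a fall. Over all 11 tested probe sets of the factors the median was -0.48. In a fit of all 16397 genes by their brightest probe set 9.20% were lower, with a median of -0.045.

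Beta cell secretory and metabolic genes, many of them targets of these factors, gave 14 of 19 tested genes lower and 0 higher, with a median of -2.88. They were bright, at a median percentile of 98.5 to 99.1 on the untreated and day 3 arrays. Of all tested probe sets at or above the 90th percentile on those arrays, 39% were called lower. Scg2, a granule protein (-5.54 ± 0.63), Cpe, which trims prohormones (-4.47 ± 0.71), Sytl4 (-3.66 ± 0.57) and Ucn3, a peptide of mature beta cells (-3.62 ± 0.51), differed most. Slc2a2, the beta cell glucose transporter (-3.42 ± 0.54), read 73.7, 3.79 and 1.76 in diabetogenic islets of days 3, 4 and 8, 75.8, 8.19, 11.7 and 5.37 in protected islets of days 3, 4, 5 and 8, and 161 in untreated islets. The hormone genes did not pass, with Ins2 at -0.12 ± 1.05 and Iapp at -0.68 ± 1.04. Ins2 read 4471, 3700 and 3409 in diabetogenic islets of days 3, 4 and 8, 4887, 5532, 6359 and 3779 in protected islets of days 3, 4, 5 and 8, and 4277 in untreated islets. Its later and day 3 arrays overlapped, and no test of the difference between genes was run. On the untreated and both day 3 arrays Ins2 gave the highest intensity of the whole array. Whether it lay near the top of the measurable range there, which could hide a change, was not tested.

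Markers of other cells moved on the same arrays. Of alpha, delta and PP cell genes 2 of 9 tested were lower after day 3, Rbp4 (-3.55 ± 0.63) and the somatostatin gene Sst (-3.43 ± 0.57), and Gcg did not pass (-2.75 ± 1.06). Acinar genes were lower for 6 of 18, with Cela1 at -3.43 ± 0.88, and of 7 tested stress and injury genes 1 was lower, Hspa5, an ER chaperone (-3.06 ± 0.60). None of the tested ductal (6), T cell (8), macrophage (13), endothelial (6) or stromal (8) genes passed. The summed intensity of 13 macrophage genes was 333, 189 and 2298 in diabetogenic islets of days 3, 4 and 8, 397, 1696, 1562 and 1969 in protected islets of days 3, 4, 5 and 8, and 90.7 in untreated islets. That of 18 acinar genes was 2499, 338 and 388, then 2088, 7228, 1362 and 2204, and 3452, in the same order. The part of other cells in the falls was not tested.

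**Figure D4:**
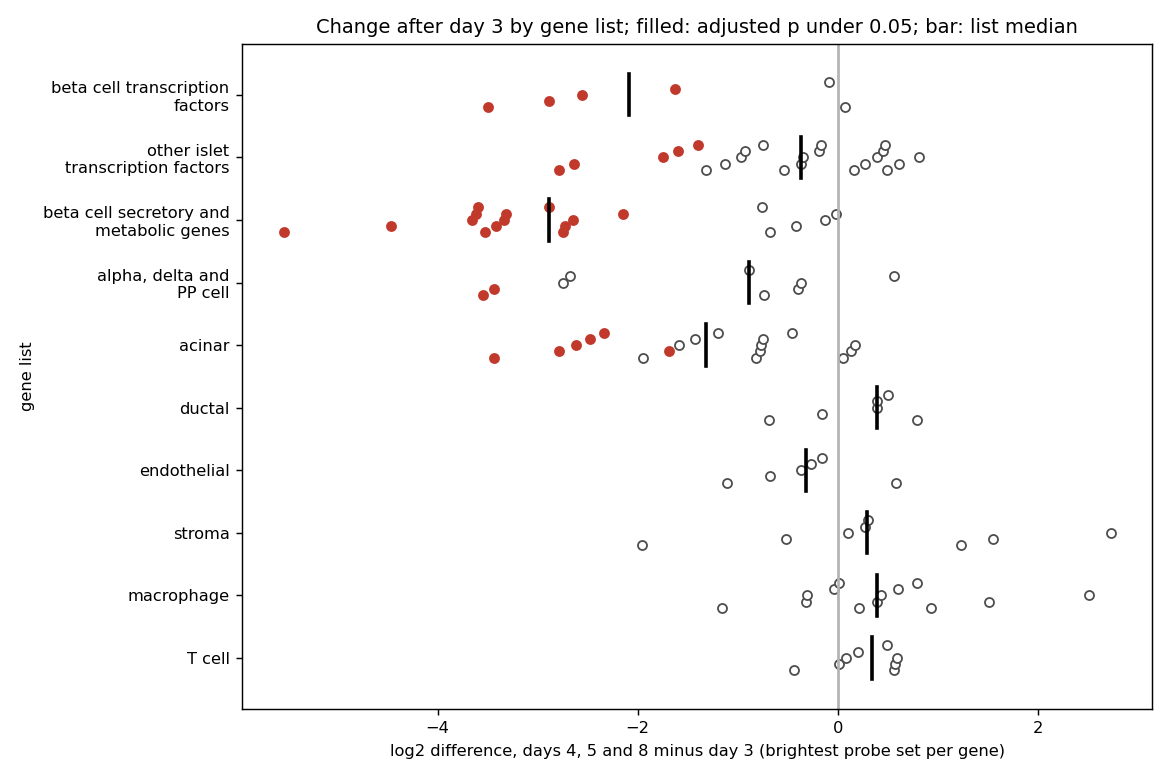
Log2 differences of days 4, 5 and 8 minus day 3 for each tested gene by its brightest probe set, in rows by gene list, with the list medians. The beta cell transcription factors have a median of -2.09, the beta cell secretory and metabolic genes -2.88 and the other islet transcription factors -0.37. The brightest probe set was chosen by its mean over the 8 arrays, day 3 among them, which favours a fall.

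The course of these factors was common among genes with a wide range. Pearson r over the 8 arrays with the mean log2 profile of the 6 measured factors was at least 0.9 for 22.1% of 4911 genes whose log2 values span at least 2. The 10 highest (r = 0.994 to 0.997) were Sphkap, Chic1, Sos2, Zranb2, Fam171b, Top2b, Aga, Mff, Nemf and Itfg1. Sphkap read 50, 1.52 and 2.88 in diabetogenic islets of days 3, 4 and 8, 53.5, 2.00, 10.4 and 6.52 in protected islets of days 3, 4, 5 and 8, and 115 in untreated islets. Among the factors, by brightest probe set, r was 0.856 to 0.968 for pairs of Pdx1, Neurod1, Isl1 and Pax6, and 0.127 to 0.615 for any of these with Nkx6-1 or Nkx2-2. The 8 points share the arrays' split in spiked controls, so these values are a description.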

How the data were processed

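RNA of islets cut by laser was pooled, amplified, biotin-labelled and hybridised, per the labels' protocols. The authors deposited 1 linear intensity per probe set and array, and its summarisation and scaling are not given in the sources consulted. The number of arrays limits the precision. Symbols come from GEO's platform annotation, which can be old (34958 probe sets with 1 symbol, 932 with several, 9211 with none).

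Intensities were taken to log2 after adding 2.155, the median of the 8 arrays' 25th percentiles. The 28847 probe sets with 1 symbol that reached the array median on at least 2 arrays were fitted with limma 3.58.1 (R 4.3.3, eBayes, trended variance), with Benjamini-Hochberg adjustment over all of them. Arms were compared with day as a block, since labels pair them by day and not by animal, later days with arm as a term, and each arm with untreated islets using all 8 arrays. Each arm's spread is between days as well as pools, so p-values do not measure spread between animals. The fits were tested on simulated data, with log2 changes of 2 and 4, under several noise settings. With noise at the residual spread, the first settings tried, the paired comparison of the arms and the interaction recovered none of the changed probe sets. Changed probe sets were recovered there with limma's moderated spread alone, in part for the interaction, and that setting was chosen afterwards and shares the model's assumptions. With noise at the residual spread, the comparisons with untreated islets recovered 0% to 1% of changed probe sets in the protected arm. In the diabetogenic arm it was 0% to 1% for a log2 change of 2 and 6% to 35% for one of 4. For later days against day 3 it was 12% to 33% for a log2 change of 2 and 47% to 92% for one of 4. The absence of calls between the arms, or against untreated islets, therefore does not show that the groups were alike.

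Named genes are all probe sets of the factors, up to 4 genes with the largest differences per list, Ins2, Iapp, Slc2a2, Gcg and Sst, and the 10 most alike in pattern. Hspa5 and the genes given with all 8 values were picked from these. The genes and lists were chosen with earlier results of these data known. Alternatives changed the pseudocount, filter, scaling, probe set choice, variance trend, block, background limit and arrays included.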

Additional observations from a re-analysis of the deposited data

Results flagged for a closer look

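Among the 4 protected arrays, 1419271_at of Pax6 stood apart on day 3, at 14.1, against 2.49, 3.27 and 3.52 on days 4, 5 and 8. The gap to the nearest array was 0.840 of the whole log2 range. The 4 arrays are of different days, and the gap is the fall after day 3 already described, so it adds no separate support. Chance sets about 1 in 20 groups of repeats apart, a rate that does not apply to arrays of different days.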

How the results depend on the processing

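For later days against day 3, 5 of the factors' probe sets were called, and 1 to 5 when arrays were left out in turn. With a slope per day in place of a step it was 0 (0 of 28847 probe sets by limma, 2678 with an unadjusted p under 0.05). Quantile normalization gave 4. No called difference changed direction. Of all probe sets 2326 were called, against 1172 after quantile normalization, 846 without protected day 3, 59 without diabetogenic day 3 and 1536 without protected day 8. Between the arms 0 of the factors' probe sets were called under every alternative, including no replicate block (day left out), which gave 0. Of all probe sets 12 were called there, against 0 without the block, 1 after quantile normalization, 6 with 4 times the pseudocount, 7 without the filter and 39 to 70 without a day pair. Against untreated islets and for the interaction the factors gave 0 under every alternative run. Of all probe sets the interaction gave 19 without diabetogenic day 8 and 0 otherwise, and protected against untreated islets gave 1, with 0 to 2 under the alternatives. The interaction could not be fitted without either day 3 array, and later days against day 3 allow no block beyond arm. At the 25th percentile as limit, 1 in place of 8 probe sets was at background on at least 3 later arrays. At the 75th, 8 to 11 of the 13 lay at or below the limit on each later array. For 2-fold differences on single days, 0.25 times the pseudocount gave 2 in place of 0 lower (day 4) and 4 in place of 2 higher (day 8) in diabetogenic than protected islets. With 4 times the pseudocount, 0 in place of 3 were lower and 0 in place of 2 higher on day 8, and 0 in place of 1 lower in diabetogenic islets of day 3 than untreated. Quantile normalization gave 1 in place of 2 higher on day 8. Directions turned only for differences that did not pass. After day 3 these were Nkx6-1 (-0.022 by quantile normalization, -0.026 by median centring) and, as slopes per day, Nkx2-2 (0.048) and 1422720_at of Isl1 (0.031). With 4 times the pseudocount, 1425960_s_at of Pax6 turned in protected against untreated islets (0.0091) and 1419271_at in the interaction (-0.040). Leaving out arrays gave ranges across 0 after day 3 for Nkx6-1 (-0.091 to 0.26), Nkx2-2 (-0.17 to 0.013), 1437816_at (-0.11 to 0.061) and 1425960_s_at of Pax6 (-0.29 to 0.033). Between the arms this held for 1422174_at of Pdx1 (-0.85 to 0.17), 1426412_at of Neurod1 (-0.082 to 0.65), 1422720_at of Isl1 (-0.27 to 0.40) and 1425960_s_at of Pax6 (-0.48 to 0.21). Against untreated islets it held for 1422720_at in diabetogenic (-0.51 to 0.21) and 1425960_s_at in protected islets (-0.14 to 0.18). In the interaction it held for Nkx6-1 (-0.57 to 0.31), 1422720_at (-0.25 to 1.17), 1419271_at (-0.062 to 0.082) and 1425960_s_at (-0.31 to 0.50). The causes were not tested. Signal near the median limits what Nkx6-1, Nkx2-2 and the dim Pax6 probe sets can show.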
